A study of Mus musculus with 6 samples.

Results

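*Brinp3* and *Kif26b* are 2 mouse genes that were near absent from the stromal nuclei of the uninjured tibial periosteum and high 3 days after fracture. They were found by symbol in the gene lists of all 6 single-nucleus RNA-seq libraries, together with their paralogues *Brinp1*, *Brinp2* and *Kif26a*, which makes 5 of the 30406 genes listed for every library. All mice were C57BL6 (C57BL/6ScNj in the study's methods) with no further genetic change, 12 weeks old, of both sexes mixed. The groups were periosteum of uninjured tibia (2 libraries), and periosteum with hematoma at 3 days (2 libraries), 5 days (1 library) and 7 days (1 library) after an open tibial fracture that was not stabilized. Each library came from nuclei of pooled mice, 4 for an uninjured library and 4 to 9 for a fracture library, so a library is the unit of replication. Nothing in the labels ties the libraries of a group to separate experiments, and p-values measure only the spread between these libraries. *Brinp3* and *Kif26b* were chosen by their stromal levels in the day 3 and uninjured libraries, which are therefore given as a description without a test.

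The BRINPs (BMP and retinoic acid-inducible neural-specific proteins) are glycoproteins of the secretory pathway with a MACPF domain, the fold of perforin and of the terminal complement proteins, and are known mainly from neurons, in which they are induced on differentiation and linked to an arrest of the cell cycle. KIF26B is a kinesin without motor activity that binds microtubules. It acts downstream of Wnt5a and the receptors Ror1 and Ror2, and in the developing kidney it holds the mesenchyme around the ureteric bud together through nonmuscle myosin (*Myh10*) and N-cadherin (*Cdh2*). KIF26A, its closest relative, is known from enteric neurons, where it dampens signalling of the receptor Ret. In fracture repair the periosteum supplies skeletal stem/progenitor cells (SSPCs), which pass through a fibrogenic state (injury-induced fibrogenic cells, IIFCs) before they form cartilage or bone.

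Both genes are long. In the GRCm38 annotation *Brinp3* (ENSMUSG00000035131) spans chr1:146494760-146902472 on the plus strand, and *Kif26b* (ENSMUSG00000026494) lies on the same strand of that chromosome at chr1:178529125-178939200. *Brinp1* (ENSMUSG00000028351) is at chr4:68761514-68954397 on the minus strand, *Brinp2* (ENSMUSG00000004031) at chr1:158245269-158356326 on the minus strand, and *Kif26a* (ENSMUSG00000021294) at chr12:112146208-112181747 on the plus strand. The gene bodies measure 408 kb for *Brinp3*, 410 kb for *Kif26b*, 193 kb for *Brinp1*, 111 kb for *Brinp2* and 35.5 kb for *Kif26a*, and since nuclear RNA holds introns, levels of different genes are compared only per kb of gene body. Annotated genes on the opposite strand overlap *Brinp3* (*Gm29514* and *Gm15584*) and *Kif26b* (*Gm16564*). *Gm29514*, at the start of *Brinp3*, had 0, 1, 1, 0, 66 and 5 UMIs in the stroma of uninjured libraries 1 and 2, day 3 libraries 1 and 2, day 5 and day 7, and the other two had at most 6 in any library.

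The bases before the transcription start are shown because they are the sequence at which the 2 induced genes can be set beside their paralogues. They are 250 bases each, 5′ to 3′ on the strand of the gene, from RefSeq on GRCm38.p6. RefSeq gives *Brinp3* 3 starts, of which the first and the third are shown (chr1:146495379-146495628 and chr1:146497437-146497686), beside *Kif26b* (chr1:178528875-178529124), *Brinp1* (chr4:68954398-68954647) and *Kif26a* (chr12:112145958-112146207). Capitals mark a TEAD motif in *Brinp3* and a TCF/LEF motif in *Kif26b*.
Brinp3, start 1: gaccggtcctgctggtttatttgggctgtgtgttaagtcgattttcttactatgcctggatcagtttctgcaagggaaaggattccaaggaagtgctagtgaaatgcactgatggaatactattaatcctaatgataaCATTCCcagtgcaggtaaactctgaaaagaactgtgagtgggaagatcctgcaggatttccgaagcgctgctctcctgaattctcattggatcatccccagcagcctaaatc
Brinp3, start 3: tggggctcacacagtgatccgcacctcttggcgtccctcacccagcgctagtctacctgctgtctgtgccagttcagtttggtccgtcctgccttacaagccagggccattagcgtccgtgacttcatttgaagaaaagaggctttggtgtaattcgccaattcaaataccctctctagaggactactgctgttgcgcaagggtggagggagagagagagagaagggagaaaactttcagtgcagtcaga
Kif26b: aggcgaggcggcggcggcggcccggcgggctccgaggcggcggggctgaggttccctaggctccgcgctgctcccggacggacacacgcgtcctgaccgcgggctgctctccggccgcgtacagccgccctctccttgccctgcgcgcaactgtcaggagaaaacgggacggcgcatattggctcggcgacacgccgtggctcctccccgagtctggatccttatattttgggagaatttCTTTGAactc
Brinp1: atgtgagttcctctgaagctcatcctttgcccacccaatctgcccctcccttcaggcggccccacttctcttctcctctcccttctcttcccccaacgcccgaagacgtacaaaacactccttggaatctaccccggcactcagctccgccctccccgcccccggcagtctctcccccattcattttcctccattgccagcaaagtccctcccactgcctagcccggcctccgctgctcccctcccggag
Kif26a: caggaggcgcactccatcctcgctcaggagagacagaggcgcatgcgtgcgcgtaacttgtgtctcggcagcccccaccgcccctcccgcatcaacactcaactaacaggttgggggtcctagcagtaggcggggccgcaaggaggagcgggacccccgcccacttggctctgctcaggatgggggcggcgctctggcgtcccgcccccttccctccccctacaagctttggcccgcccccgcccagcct
The *Kif26b* promoter was rich in CG, with a GC content of 68.4% and 32 CpG dinucleotides, whereas the *Brinp3* windows had 44.8% and 52.8% GC with 4 and 8 CpG. Over all RefSeq promoters the median was 52.4% GC and 6 CpG. Among 9 motifs searched on both strands from 250 bases before to 50 bases after the start, the TEAD motif (GGAATG, in 14.7% of 32851 promoters) was found in *Brinp3*, 112 bases before the first start, and the TCF/LEF motif (CTTTGA, 16.0%) in *Kif26b*, 10 bases before the start. All 4 genes held a CCAAT box (CCAAT, 37.4%) or a GC box (GGGCGG, 35.7%), and all 4 an E-box (CANNTG, 72.3%). The letters of AP-1 (TGANTCA, 7.81%), RUNX (TGTGGT, 16.8%), the retinoic acid receptor site (AGGTCA, 16.3%) and the TATA box (TATAAA, 13.6%) were not in any of these windows. In *Kif26a* the E-box shares its first base with a GC box. A match is a string of letters and not a measured binding site.

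After filtering and removal of muscle nuclei 6516 nuclei were clustered, 382 to 2171 per library, and 2839 of them (129 to 1066 per library) fell into stromal clusters, named for their markers as chondrocyte-like, osteoblast-like, IIFC-like, fibroblast-like or SSPC-like. The median stromal nucleus had 1373 to 4003 UMIs (unique molecular identifiers, each a counted RNA molecule). Names rest on fixed markers, and in every named class at least 4 of its 5 to 7 markers were highest there, the lowest counts being 4 of 7 for the fibroblast-like and for the IIFC-like class. *Brinp3* and *Kif26b* themselves were left out of the features used for integration. Any 2 libraries shared at most 7 barcodes. Counts came from Cell Ranger 6.0.0 (uninjured 1, day 5, day 7) or 7.1.0 (uninjured 2 and both day 3 libraries). Levels are UMIs per 1000000 UMIs of the nuclei concerned (CPM), with exact Poisson 95% intervals that cover counting error only.

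*Brinp3* was almost silent in the uninjured stroma and was abundant in the stroma of all 4 fracture libraries. Its level was 4.26 CPM (1 UMI) and 5.04 CPM (8 UMIs) in the uninjured libraries, 328 CPM (133 UMIs, interval 275 to 389) and 309 CPM (571 UMIs, interval 285 to 336) in the day 3 libraries, 983 CPM (5424 UMIs, interval 957 to 1010) at day 5 and 390 CPM (617 UMIs, interval 360 to 422) at day 7. All 4 fracture libraries stood far above both uninjured ones, and day 5 stood above the other 3. The intervals of the day 3 libraries overlapped each other, and that of day 7 overlapped that of day 3 library 1. Against the pooled uninjured stroma *Brinp3* was 66.5-fold and 62.7-fold higher in the libraries of day 3, 199-fold in that of day 5 and 79.0-fold in that of day 7. The lowest bound of these ratios, which covers counting error only, was 32.8. The mean was 4.65 ± 0.55 CPM (SD, n = 2) in uninjured stroma and 319 ± 13.4 CPM (SD, n = 2) at day 3, a fitted log2 difference of 5.95.

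*Kif26b* reached its high level by day 3 and lay in the same range later. It was 12.8 CPM (3 UMIs) and 7.55 CPM (12 UMIs) in the uninjured libraries, 491 CPM (199 UMIs, interval 425 to 565) and 697 CPM (1286 UMIs, interval 659 to 736) at day 3, 528 CPM (2910 UMIs, interval 509 to 547) at day 5 and 494 CPM (782 UMIs, interval 460 to 530) at day 7. Day 3 library 2 was highest, and the intervals of day 3 library 1, day 5 and day 7 overlapped one another. The ratio to the pooled uninjured stroma was 59.7 and 84.7 for day 3, 64.1 for day 5 and 60.1 for day 7. The lowest bound, which covers counting error only, was 35.3. The mean was 10.2 ± 3.69 CPM (SD, n = 2) in uninjured stroma and 594 ± 145 CPM (SD, n = 2) at day 3, a fitted log2 difference of 6.0. A single nucleus of day 3 library 1 held 67 of the 199 *Kif26b* UMIs, and without it that library was at 337 CPM. The highest nucleus for *Brinp3* in that library held 24 of 133 UMIs, which left 279 CPM.

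**Figure D1:**
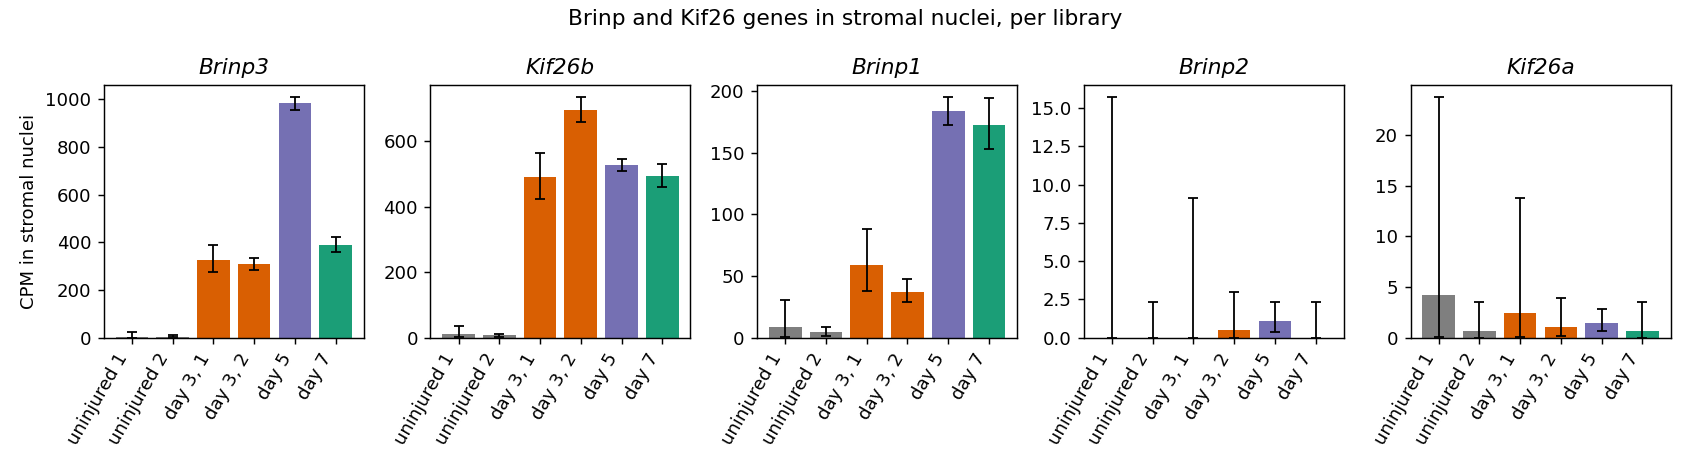
Levels of *Brinp3*, *Kif26b*, *Brinp1*, *Brinp2* and *Kif26a* in the stromal nuclei of each of the 6 libraries, in CPM with exact Poisson 95% intervals as bars. *Brinp3* peaks in the day 5 library at 983 CPM, *Kif26b* lies between 491 and 697 CPM in the 4 fracture libraries, and *Kif26a* stays at or under 4.26 CPM throughout.

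In the summed stroma the order of the 2 genes differed between libraries. Per kb of gene body, *Kif26b* was at 1.20 and 1.70 CPM per kb in the day 3 libraries and *Brinp3* at 0.806 and 0.759, whereas at day 5 *Brinp3* was at 2.41 and *Kif26b* at 1.29 CPM per kb. At day 7 the values were 0.957 CPM per kb for *Brinp3* and 1.21 for *Kif26b*. Thus in the summed stroma *Kif26b* had the higher level per length in the day 3 and day 7 libraries and *Brinp3* in that of day 5. Days 5 and 7 are 1 library each, so a change with time was not tested. The order did not hold in every class. On gene bodies of 408 and 410 kb, IIFC-like nuclei had 461 CPM of *Brinp3* and 370 CPM of *Kif26b* in day 3 library 1, and 410 and 802 CPM in library 2.

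With every nucleus thinned to 500 UMIs, *Brinp3* was detected in 0 of 135 and 0.247% of uninjured stromal nuclei, in 10.9% and 11.5% at day 3, in 20.9% at day 5 and in 11.2% at day 7 (0 of 135 allows a share of up to 2.22%). *Kif26b* was detected in no thinned uninjured nucleus, in 13.2% and 18.4% at day 3, in 16.7% at day 5 and in 14.4% at day 7. Unthinned, 28, 92, 474 and 164 nuclei of the day 3, day 5 and day 7 libraries held a *Brinp3* UMI, and 43, 156, 489 and 211 a *Kif26b* UMI. Shallower nuclei left out by the thinning numbered at most 7 in any library. The share rises with depth (at day 5, 20.9% of nuclei with *Brinp3* at 500 UMIs, 30.5% at 1000 UMIs and 44.5% unthinned), so it does not give the share of nuclei that express the gene.

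Immune-like nuclei, which should lack both transcripts, gave the reading of free RNA. After the same thinning they held *Brinp3* in 0% and 0.596% of nuclei at day 3, 1.84% at day 5 and 0% at day 7, and *Kif26b* in 1.41%, 1.43%, 0.921% and 5.61%, with median depths of 1628.5, 3495, 1474.5 and 747 UMIs against 2327, 3129, 4003 and 1484 in the stroma. The stromal shares were above these in each fracture library, least so for *Kif26b* at day 7. Relative to 8 abundant stromal transcripts, *Brinp3* stood at 58.4 UMIs per 1000 in the stroma at day 5 and 9.00 in immune-like nuclei, and *Kif26b* at 65.5 and 57.5 at day 7. In the uninjured libraries the immune-like share was 0% and 1.28% for *Brinp3*, with 0 and 2 UMIs in 27 and 81 nuclei before thinning. The uninjured stromal shares of *Brinp3* were no higher, though this background rests on few nuclei. For *Kif26b* the uninjured immune-like nuclei held no UMI, against 3 and 12 in the stroma. These counts come from 27 and 81 immune-like and 135 and 412 stromal nuclei. So few immune-like nuclei cannot tell the uninjured stromal level of *Kif26b* from background.

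The 2 transcripts were found in the same nuclei somewhat more often than their separate shares give. At day 5, 57 thinned stromal nuclei held both against 37.2 expected if they were independent, at day 7 it was 25 against 11.8, in day 3 library 2 it was 14 against 7.71, and in day 3 library 1 it was 1 against 1.84. The later libraries and day 3 library 2 thus lay above expectation and day 3 library 1 did not, and no test was made because nuclei of 1 library share their source. The expected numbers pool all stromal classes, which differ in the level of both genes. An excess therefore cannot be read as pairing within a class, which was not tested.

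Of the paralogues, *Brinp1* was higher after fracture at a lower level, and the other two stayed near 0. *Brinp1* was 8.52 CPM (2 UMIs) and 4.41 CPM (7 UMIs) in uninjured stroma, 59.3 CPM (24 UMIs) and 37.4 CPM (69 UMIs) at day 3, 183 CPM (1011 UMIs) at day 5 and 173 CPM (273 UMIs) at day 7. Every fracture library lay above both uninjured libraries, and days 5 and 7 lay above day 3. In edgeR's quasi-likelihood test *Brinp1* rose at day 3, with a log2 fold change of 3.10 (standard error 0.71) and a Benjamini-Hochberg adjusted p of 0.0324, where 8.21% of the 9863 genes tested in the stroma passed in either direction and 3.35% were higher. The call was lost without uninjured library 2 (log2 fold change 2.42, edgeR adjusted p 0.218), without day 3 library 2 (3.59, adjusted p 0.0627) and over all nuclei instead of stromal ones (1.97, adjusted p 0.117), and adjusted p ranged from 0.0010 to 0.218 over all alternatives.

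*Kif26a* had 1, 1, 1, 2, 8 and 1 stromal UMIs in the 6 libraries (4.26, 0.63, 2.47, 1.08, 1.45 and 0.63 CPM), and *Brinp2* had 0, 0, 0, 1, 6 and 0. Neither passed the filter on low counts in the stroma, so neither was tested, and no difference was detectable at this depth. Set per length, *Brinp1* at day 5 was at 0.95 CPM per kb, below *Brinp3* (2.41) and *Kif26b* (1.29), and *Kif26a* was at 0.0408. Of 8 neuronal genes 1 passed the filter on low counts, so the list as a whole was not tested. This gene, *Syt1*, a synaptic vesicle protein, fell from 46.8 and 23.9 CPM to 2.47 and 2.71 CPM (log2 fold change -3.71, edgeR adjusted p 0.0229), a call that was lost without uninjured library 1 (adjusted p 0.0720), uninjured library 2 (0.138) or day 3 library 2 (0.209). The other members (*Snap25*, *Rbfox3*, *Stmn2*, *Elavl4*, *Tubb3*, *Nefl* and *Gap43*) were at or under 8.34 CPM in all fracture libraries, and at or under 32.1 CPM in the uninjured ones.

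Within the stroma *Brinp3* was highest in IIFC-like nuclei at day 5, while *Brinp1* at day 5 was highest in fibroblast-like nuclei (633 CPM, against 37.0 CPM in IIFC-like ones). In IIFC-like nuclei *Brinp3* was 0 and 7.51 CPM uninjured, 461 and 410 CPM at day 3, 1627 CPM at day 5 and 635 CPM at day 7. In fibroblast-like nuclei it was 6.16 and 5.53 CPM uninjured, 260 and 270 CPM at day 3, 681 CPM at day 5 and 665 CPM at day 7. The IIFC-like level was above the fibroblast-like one at days 3 and 5 but not at day 7, and without integration the day 3 order was reversed (232 CPM in IIFC-like and 368 CPM in fibroblast-like nuclei, means of 2 libraries). The clusters were built from these nuclei, so populations are compared without a test.

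Osteoblast-like nuclei had less *Brinp3*, with 5.28 CPM (uninjured 2), 12.9 CPM (day 3 library 2), 171 CPM (day 5) and 143 CPM (day 7) where there were at least 20 nuclei. Chondrocyte-like nuclei, present in number only at days 5 and 7, had 282 and 28.1 CPM. Stromal nuclei gave 92.1% to 99.3% of the *Brinp3* UMIs of the clustered nuclei in each fracture library. Barcodes left out of the clustering are not in this share. In day 3 library 2 those with over 5000 genes held 1437 *Brinp3* UMIs, against 571 in the stroma. SSPC-like nuclei numbered 23 and 61 in the uninjured libraries, where they held 0 and 1 *Brinp3* UMIs, and 4, 4, 13 and 13 after fracture, which is too few to follow.

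*Kif26b* was likewise high in fibroblast-like and IIFC-like nuclei. Fibroblast-like nuclei had 18.5 and 6.64 CPM uninjured, 787 and 757 CPM at day 3, 455 CPM at day 5 and 680 CPM at day 7. IIFC-like nuclei had no UMI in either uninjured library and 370 and 802 CPM at day 3, 825 CPM at day 5 and 777 CPM at day 7, at least 19-fold, 41.2-fold, 42.4-fold and 39.9-fold above the limit of 3 UMIs over the uninjured group. The fibroblast-like level exceeded the IIFC-like one in day 3 library 1, and the IIFC-like level exceeded the other at day 5. Osteoblast-like nuclei had 161, 175 and 131 CPM in day 3 library 2, at day 5 and at day 7, and chondrocyte-like nuclei 82.5 and 167 CPM at days 5 and 7.

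**Figure D2:**
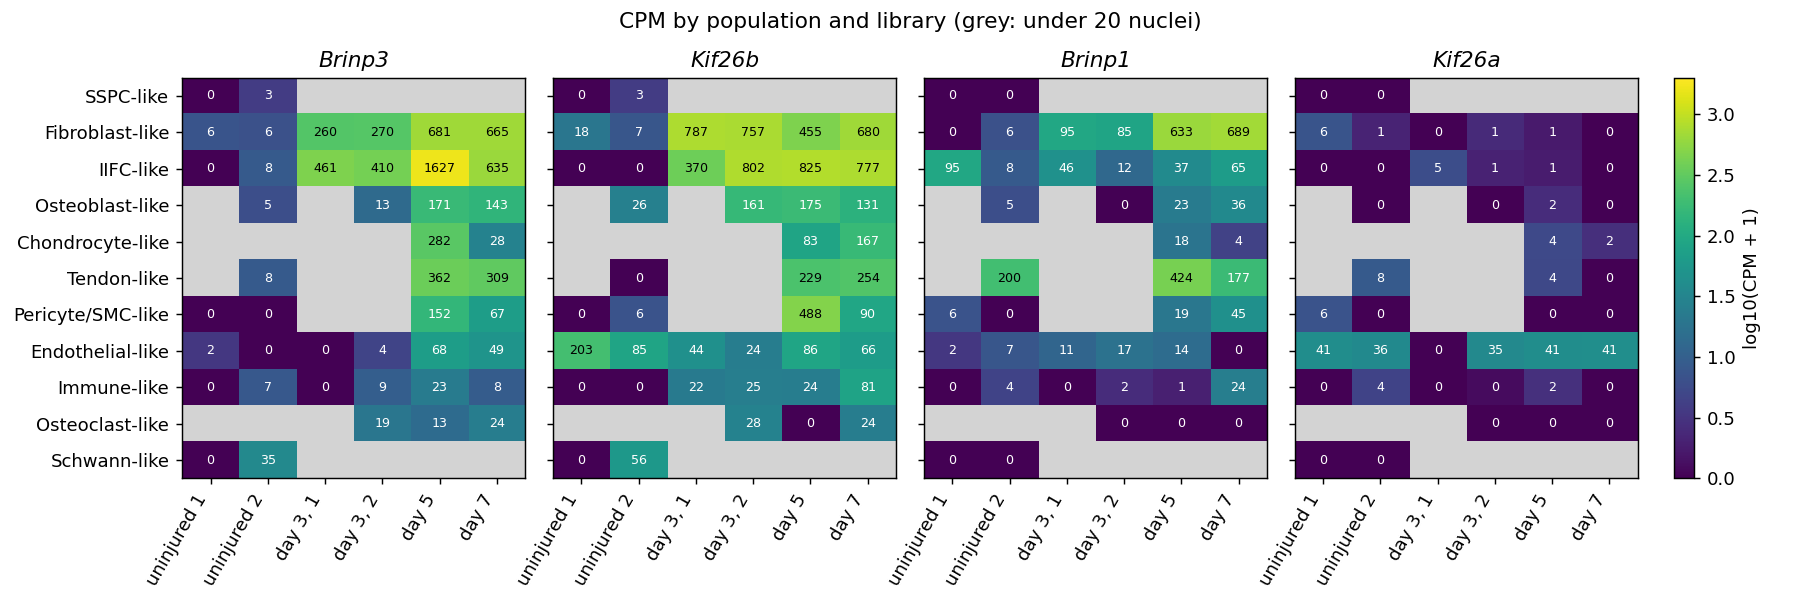
Levels of *Brinp3*, *Kif26b*, *Brinp1* and *Kif26a* in each population (rows) and library (columns), as CPM. Colour is on the scale log10(CPM + 1), brighter for higher levels, with grey for fewer than 20 nuclei. *Brinp3* is high in fibroblast-like and IIFC-like nuclei of all fracture libraries, and *Kif26b* is also present in uninjured endothelial-like nuclei (203 and 84.7 CPM). *Brinp1* is high in fibroblast-like nuclei at days 5 and 7 and in tendon-like nuclei.

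The IIFC-like class joined 2 clusters, one led by *Diaph3* and *Bmpr1b* with cell-cycle genes and one led by *Brinp3* and *Tnn*, a tenascin of injured bone. The first held 67 of the 86 IIFC-like nuclei of uninjured library 2 and the second 294 of the 454 at day 5. Uninjured nuclei of the first were shallow, with medians of 646 and 746 UMIs against 1373 and 1960.5 over the stroma of the same libraries. *Kif26b* and *Brinp3* were themselves among the 10 genes that led the first. *Brinp3* in the *Brinp3*/*Tnn* cluster was 589 and 399 CPM at day 3, 1770 CPM at day 5 and 734 CPM at day 7, and in the *Diaph3*/*Bmpr1b* cluster 396, 438, 1133 and 359 CPM. The day 5 value was therefore the highest in each of the clusters.

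*Kif26b* in the *Diaph3*/*Bmpr1b* cluster was 328, 452, 855 and 1018 CPM over the same libraries, and in the *Brinp3*/*Tnn* cluster 453, 952, 817 and 691 CPM. *Brinp1* at day 5 was 620 CPM in the *Fgf7*/*Bmper* fibroblast-like cluster and 843 CPM in the smaller *Luzp2*/*Ntng1* one (23 nuclei), against 30.7 CPM in the *Brinp3*/*Tnn* cluster. At day 5 the *Luzp2*/*Ntng1* cluster had 73.3 CPM of *Brinp3*, while in the *Fgf7*/*Bmper* cluster *Brinp3* (719 CPM) was high together with *Brinp1*.

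**Figure D3:**
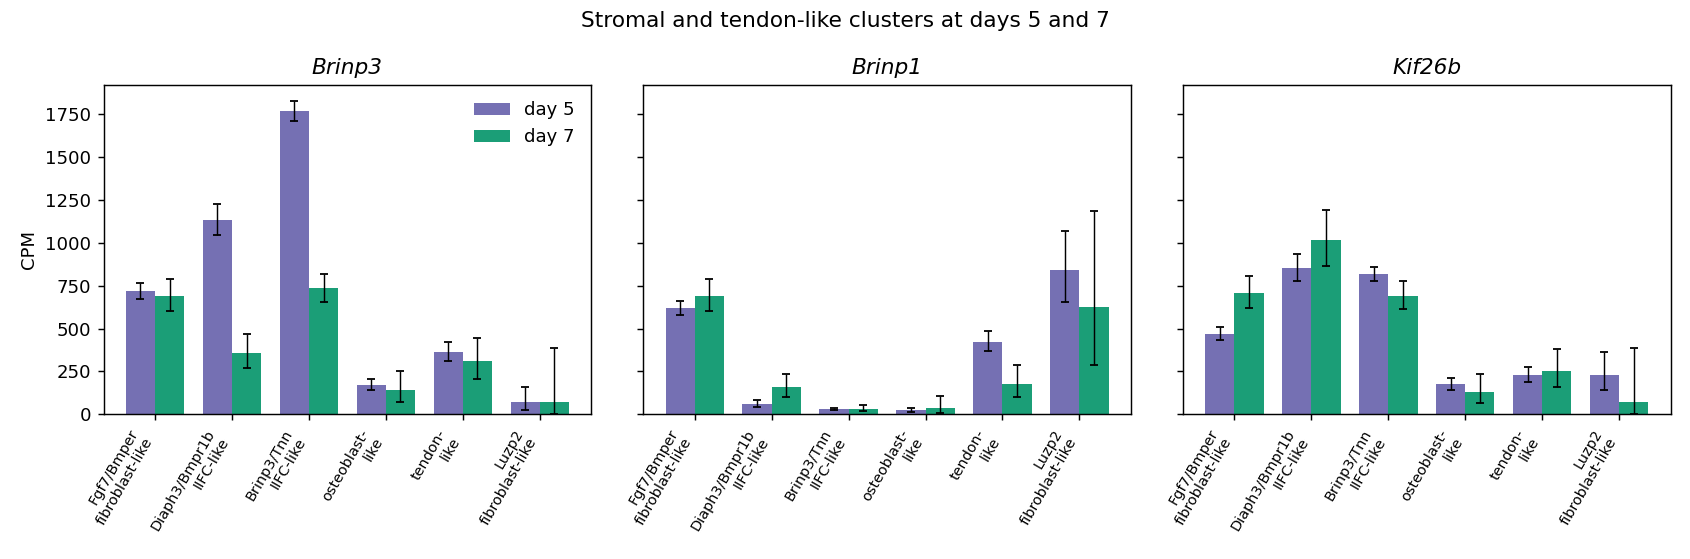
*Brinp3*, *Brinp1* and *Kif26b* levels in CPM in 6 clusters of the stroma and tendon at days 5 and 7, 1 library each. *Brinp3* is highest in the *Brinp3*/*Tnn* cluster at day 5 (1770 CPM), where *Brinp1* is at 30.7 CPM, and *Brinp1* is highest in the *Luzp2*/*Ntng1* cluster (843 CPM).

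Tendon-like nuclei, led by *Tnmd* and *Mkx*, held *Brinp1* before injury as well. It was 200 CPM in uninjured library 2, 281 and 399 CPM at day 3, 424 CPM at day 5 and 177 CPM at day 7, from 15 to 89 nuclei, and uninjured library 1 had no such nucleus. *Brinp1* was itself among the genes that led this cluster. *Brinp3* there was 7.70 CPM uninjured, 0 in both day 3 libraries, 362 CPM at day 5 and 309 CPM at day 7, so that both day 3 libraries were without it while the fibroblast-like nuclei of the same libraries had it.

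Outside the stroma *Kif26b* was already present in the uninjured periosteum, in an endothelial-like cluster. This cluster was led by *Mmrn1*, *Reln*, *Ccl21a*, *Prox1* and *Flt4*, of which *Prox1* is the transcription factor of lymphatic endothelium and *Flt4* the receptor for VEGF-C. It held 22 and 29 nuclei in the uninjured libraries and 70.7% and 76.4% of the *Kif26b* UMIs of their clustered nuclei, at 1747 and 689 CPM. The muscle nuclei removed before clustering are not in this share. They held 29 and 69 *Kif26b* UMIs in the same libraries (53.6 and 35.6 CPM). After fracture it had 334 and 76.6 CPM at day 3 (2 UMIs each, in 2 and 4 nuclei), 882 CPM at day 5 (49 UMIs, 26 nuclei) and no UMI at day 7 (5 nuclei). The uninjured and day 5 levels lay within or above the range of the fracture stroma, and days 3 and 7 had too few nuclei to read.

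Over all endothelial-like nuclei *Kif26b* was 203 and 84.7 CPM uninjured, 44.1 and 24.1 CPM at day 3, 86.3 CPM at day 5 and 65.9 CPM at day 7. Both uninjured libraries lay above both day 3 libraries. The difference did not pass the test (log2 fold change -2.44, standard error 0.64, edgeR adjusted p 0.0853), where 3.44% of 7210 genes passed in either direction, and adjusted p ranged from 0.0002 with no filter on low counts to 0.942 without the *Prox1* cluster, whose removal left a log2 fold change of -0.31 (standard error 1.07). Without that cluster the level was 52.3, 4.70, 23.6, 21.5, 27.8 and 68.8 CPM in the 6 libraries, and the cluster made up 10.5% and 10.9% of uninjured and 5.26% and 5.00% of day 3 endothelial-like nuclei.

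*Kif26a* was found mainly in endothelial-like nuclei. Its level was 40.5 and 35.7 CPM uninjured (17 and 43 UMIs), 0 and 35.3 CPM at day 3 (0 and 19 UMIs), 40.7 CPM at day 5 and 41.2 CPM at day 7. Apart from day 3 library 1, where 38 nuclei held no UMI, the libraries lay close together, and the test gave a log2 fold change of -0.69 (standard error 0.70, edgeR adjusted p 0.706). Per length it was at 1.14 and 1.00 CPM per kb in uninjured endothelium against 0.494 and 0.206 for *Kif26b*. *Brinp3* was at or under 3.71 CPM in the endothelium of the uninjured and day 3 libraries.

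**Figure D4:**
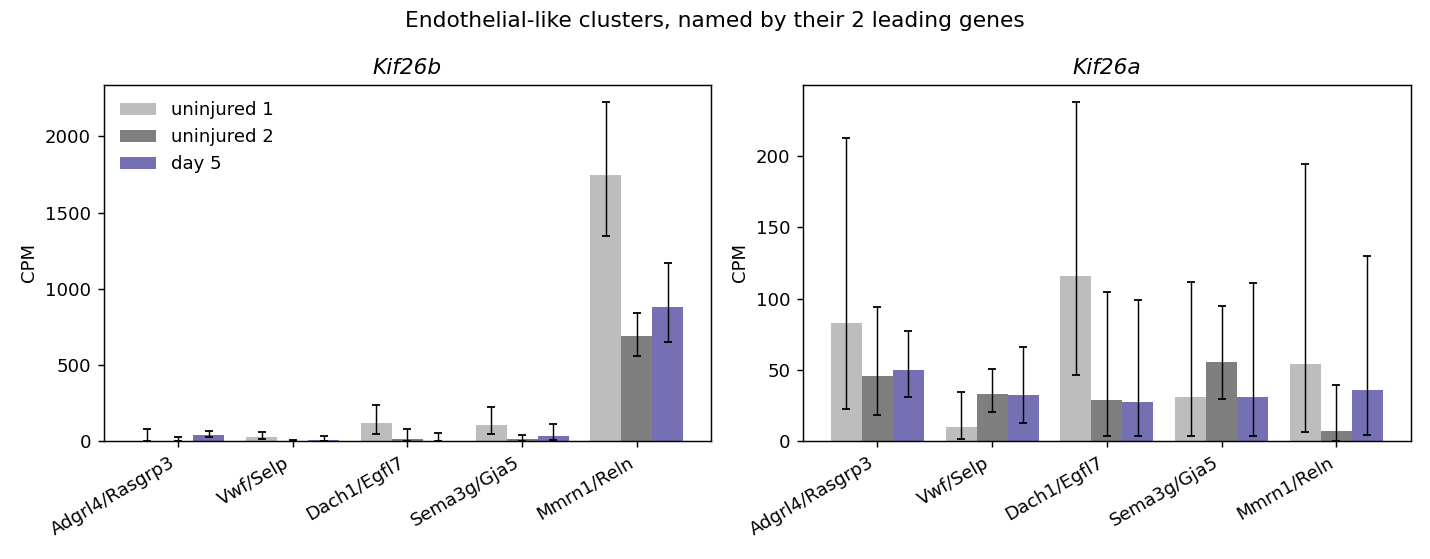
*Kif26b* and *Kif26a* levels in CPM in the 5 endothelial-like clusters, for the uninjured libraries and day 5, with exact Poisson 95% intervals. *Kif26b* is concentrated in the *Mmrn1*/*Reln* cluster (1747, 689 and 882 CPM), while *Kif26a* is found at lower levels across the clusters.

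Pericyte and smooth muscle-like nuclei had *Kif26b* chiefly at day 5. It had 0 and 2 UMIs in 63 and 64 uninjured nuclei, 151 UMIs in 76 nuclei at day 5 (488 CPM) and 4 UMIs in 32 nuclei at day 7 (89.7 CPM), and the day 3 libraries held 4 and 9 such nuclei with no UMI. The ratio to the 8 stromal transcripts was 80.3 per 1000 in these nuclei at day 5 and 31.3 in the stroma, while for *Brinp3* (47 UMIs, 152 CPM) it was 25 and 58.4. The test at day 3 was not run, because these libraries held fewer than 20 such nuclei. A cluster led by *Pax7*, the transcription factor of muscle satellite cells, had *Kif26b* at 137, 19.6, 61.4, 172, 432 and 175 CPM in the 6 libraries, present in each and highest at day 5.

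Immune-like nuclei gave no call for any gene in edgeR (0 of 5262, a share of 0%), with 274 at an unadjusted p under 0.05 and 16 called by DESeq2. *Brinp3* there was at most 22.8 CPM in any library, and *Kif26b* was 0 and 0 CPM uninjured, 21.8 and 24.9 CPM at day 3, 23.7 CPM at day 5 and 81.4 CPM at day 7. Neither passed the filter on low counts in immune-like nuclei.

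Few genes of the pathways around KIF26B passed the test. Of 28 genes of Wnt5a-Ror signalling and planar polarity, 22 were tested in the stroma, 0 passed as higher and 1 as lower (4 at an unadjusted p under 0.05, 0 by DESeq2), with a median log2 fold change of -0.31 beside 0.01 over all genes, of which 4.87% were called lower. The one that fell was *Daam2*, a formin that binds Dishevelled, from 51.1 and 105 CPM to 22.2 and 24.9 CPM (log2 fold change -1.88, edgeR adjusted p 0.0476), and the call was lost without uninjured library 2 (-1.16, adjusted p 0.382) or day 3 library 2 (-1.73, adjusted p 0.192). *Ryk*, a Wnt co-receptor, had a log2 fold change of 0.99 (adjusted p 0.146) and *Prickle2*, a core polarity protein, one of -1.08 (adjusted p 0.235).

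The ligand and receptors named above, chosen here after their values were seen, were present before injury: *Ror1* was 1342 and 745 CPM uninjured and 1491 and 871 CPM at day 3, *Ror2* was 354 and 276 CPM and then 254 and 393 CPM, and *Wnt5a* was 51.1 and 34.6 CPM and then 14.8 and 19 CPM. None of these passed the edgeR test (adjusted p 0.89, 0.97 and 0.18). The uninjured and day 3 libraries overlapped for both receptors and not for *Wnt5a*.

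Of 11 partners and regulators of KIF26B known from the kidney, 7 were tested and 1 was called higher (3.35% of all genes were), with a median of -0.17. This was *Cdh2*, N-cadherin, at 12.8 and 46.6 CPM uninjured, 128 and 308 CPM at day 3, 598 CPM at day 5 and 353 CPM at day 7 (log2 fold change 2.54, edgeR adjusted p 0.0214). The log2 fold change was 4.02 without uninjured library 2, and the call was lost without day 3 library 2 (2.04, adjusted p 0.0953). Each fracture library lay above both uninjured libraries. *Myh10*, which encodes nonmuscle myosin IIB, was 42.6 and 60.4 CPM uninjured and 51.9 and 48.2 CPM at day 3 (log2 fold change -0.17, adjusted p 0.881), and *Mib1*, a ubiquitin ligase, had a log2 fold change of 0.46 (adjusted p 0.561).

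The BMP and retinoic acid axes, after which the BRINPs are named, did not rise as lists. Of 20 BMP genes 15 were tested and 0 were called by edgeR, where 8.21% of all genes tested in the stroma passed in either direction. Of the 15, 6 had an unadjusted p under 0.05 and 1 was called by DESeq2, and the median log2 fold change was 0.09. The receptor *Bmpr1b* was 115 and 187 CPM uninjured and 583 and 366 CPM at day 3 (log2 fold change 1.60, edgeR adjusted p 0.0573), the ligand *Bmp6* was 136 and 111 CPM and then 24.7 and 59.6 CPM (log2 fold change -1.57, adjusted p 0.0521), and the inhibitor *Smad7* had a log2 fold change of 0.87 (adjusted p 0.224). The libraries of the 2 groups did not overlap for *Bmpr1b* or *Bmp6*, yet neither passed.

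Of 17 retinoic acid genes 13 were tested, 0 were higher and 2 lower by edgeR (4.87% of all genes were lower), with 7 at an unadjusted p under 0.05, 1 called by DESeq2 and a median of -0.27. *Aldh1a1*, an enzyme that makes retinoic acid, fell from 596 and 376 CPM to 42 and 90.5 CPM (log2 fold change -2.92, edgeR adjusted p 0.00641) and was 29.0 and 20.9 CPM at days 5 and 7. *Stra6*, the retinol uptake receptor, had 25 and 30 UMIs uninjured and 2 and 0 at day 3 (log2 fold change -5.70, adjusted p 0.0463). Its uninjured libraries differed, at 106 and 18.9 CPM, and the fold change went from -9.14 without day 3 library 1 to -3.25 without day 3 library 2, with the call lost without the latter (adjusted p 0.226) and without uninjured library 1 (-4.12, adjusted p 0.145). The receptor *Rarb*, with a log2 fold change of -2.71 (adjusted p 0.0848), did not pass. In *Rarb* the uninjured libraries themselves differed widely, at 724 and 109 CPM.

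Among 9 other genes with a MACPF domain or related to the BRINPs, 2 passed the filter. Complement component *C7* fell from 315 and 2069 CPM to 0 and 1.63 CPM (log2 fold change -9.90, edgeR adjusted p 0.00319) and was 1.09 CPM and 0 at days 5 and 7. The fold change of *C7* was -7.91 without uninjured library 2, -10.71 without uninjured library 1 and -12.78 without day 3 library 2, called in each. *Astn2*, a neuronal adhesion protein, had a log2 fold change of 0.16 (adjusted p 0.888). *C7* thus ran opposite to *Brinp3* in the summed stroma of these libraries, with the lowest uninjured library far above every fracture library. The 2 genes were not compared within single nuclei.

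Kinesins of cell division rose in the stroma, and those of transport did not. All 13 mitotic kinesins were tested, 11 were called higher and 0 lower, with a median log2 fold change of 4.35, or 4.16 with the 2 that had no uninjured UMI set at their bound. Over all genes tested in the stroma, 3.35% were called higher and 4.87% lower. *Kif14* was 0 in both uninjured libraries and 39.5 and 21.7 CPM at day 3, at least 15.1-fold higher (edgeR adjusted p 0.0195), *Kif2c* at least 10.5-fold higher (adjusted p 0.0254), and *Kif15* went from 0 and 3.15 CPM to 119 and 68.3 CPM (log2 fold change 5.06, adjusted p 0.00763). Of 17 transport and signalling kinesins 12 were tested, 0 were higher and 1, *Kif13b*, was lower, from 405 and 426 CPM to 116 and 176 CPM (log2 fold change -1.58, adjusted p 0.0208), with *Kif16b* at -0.86 (adjusted p 0.324) and *Kif1b* at -0.75 (adjusted p 0.232). The call of *Kif14* was lost without uninjured library 2 (adjusted p 0.173) or day 3 library 2 (0.129), and that of *Kif13b* without uninjured library 2 (0.0654), day 3 library 1 (0.0791) or day 3 library 2 (0.0871). *Kif15* was still called without uninjured library 2, the one with its uninjured UMIs, but then against a library with no UMI of it.

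**Figure D5:**
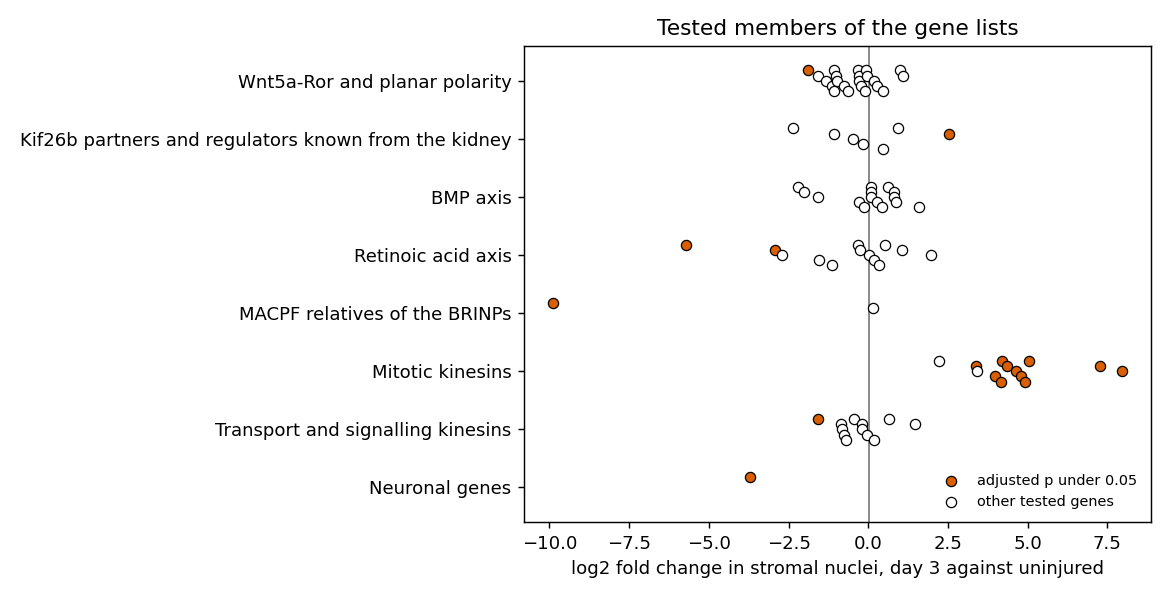
Log2 fold change at day 3 against uninjured in stromal nuclei for each tested member of the 8 lists, filled where the edgeR adjusted p is under 0.05, with a grey line at the median of all genes (0.01). The mitotic kinesins lie to the right, with 11 of 13 called, while the other lists have 0 or 1 called higher and 0 to 2 called lower. Over all genes tested in the stroma, 3.35% were called higher and 4.87% lower.

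Summed over the list, the mitotic kinesins were 1059 and 1023 CPM at day 3, 706 CPM at day 5 and 352 CPM at day 7 in the *Diaph3*/*Bmpr1b* cluster, and 106, 295, 263 and 71.3 CPM in the *Brinp3*/*Tnn* cluster. *Brinp3* was higher in the second of these clusters in day 3 library 1 (589 against 396 CPM), at day 5 (1770 against 1133 CPM) and at day 7 (734 against 359 CPM), and higher in the first, like the mitotic sum, in day 3 library 2 (438 against 399 CPM). In the *Fgf7*/*Bmper* cluster they were 705 and 352 CPM at day 3 and 146 and 165 CPM at days 5 and 7, whereas *Brinp3* there was 265 and 270 CPM and then 719 and 691 CPM. In that cluster the mitotic sum was thus lower and *Brinp3* higher at the later days.

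In endothelial-like nuclei, where *Brinp3* stayed near 0 at day 3, the mitotic kinesins were also called higher, 8 of the 10 tested with a median of 5.44 (5.11 with the gene at 0 set at its bound) beside -0.02 over all genes, of which 1.82% were higher and 1.62% lower. *Cenpe* went from 0 and 1.66 CPM to 88.2 and 108 CPM (log2 fold change 6.03, edgeR adjusted p 0.0208), *Kif23* from 0 and 1.66 CPM to 55.1 and 83.5 CPM (5.58, adjusted p 0.0214), and *Kif18b* was at least 18.1-fold higher (adjusted p 0.025). Of the other lists, *Fzd6*, a Wnt receptor, fell from 203 and 237 CPM to 22.1 and 68.7 CPM (log2 fold change -2.15, adjusted p 0.0347), and *Bmp4* fell from 141 and 175 CPM to 11 and 42.7 CPM (log2 fold change -2.35, adjusted p 0.0398). The calls of *Fzd6* and *Bmp4* were lost without uninjured library 2 (adjusted p 0.0969 and 0.116) and without day 3 library 2 (-3.31 and -3.82, adjusted p 0.416 for both), and that of *Kif18b* without uninjured library 1 (0.0661), uninjured library 2 (0.271) or day 3 library 1 (0.122). *Cenpe* and *Kif23* were still called without uninjured library 2, which held their uninjured UMIs, but then against a library with no UMI of either. Without day 3 library 2 the calls of *Cenpe*, *Kif23* and *Kif18b* were all lost. With 1 library left out the log2 fold change was 5.61 to 8.09 for *Cenpe* and 5.15 to 7.63 for *Kif23*.

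Genes were ranked by how closely their levels followed *Brinp3* and *Kif26b*. Over 40 groups of nuclei, each a library and class with at least 30 nuclei, the log2 levels of *Brinp3* correlated best with *Fbn2* (Pearson r 0.91), *Postn* (0.90), *A630023A22Rik* (0.88), *Eef1akmt3* (0.86), *P4ha3* (0.85), *Kif26b* (0.82), *Tnn* (0.82), *Cthrc1* (0.82), *Npas2* (0.81) and *Acvr1* (0.80), among 9182 genes. *Fbn2* encodes a fibrillin, *Postn* periostin, *P4ha3* a collagen prolyl hydroxylase and *Cthrc1* a secreted protein of collagen-producing fibroblasts.

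For *Kif26b* the list was *Brinp3* (0.82), *Adam12* (0.78), *A630023A22Rik* (0.76), *Spats2* (0.75), *Fbn2* (0.73), *Glis3* (0.73), *Hs6st3* (0.72), *Tln2* (0.72), *Postn* (0.72) and *L3mbtl3* (0.72). *Brinp3* and *Kif26b* were both chosen for being low in uninjured and high in day 3 stroma, and these groups enter the correlation, so their likeness to each other follows in part from that choice (r 0.73 with log2(CPM + 1)). Among the 10, 3 genes (*A630023A22Rik*, *Fbn2* and *Postn*) stood in both lists. The groups share libraries and depth, 28 of the 40 come from fracture libraries and 17 are stromal, and *Postn* and *Tnn* helped to name the IIFC-like class, so these values are a description.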

How the data were processed

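Nuclei were sorted with Sytox-AAD and sequenced by the 3′ 10x Genomics method. What the authors deposited is 1 count matrix per library, raw UMIs by gene and barcode, made with Cell Ranger 6.0.0 or 7.1.0 per the file headers and the mm10 build per the submitters' processing notes. Depth ran from 1499281 to 29796296 UMIs per library. Members and gene lists were chosen with earlier results of these data known, and the rule that gave clusters their names was set after the clusters were seen.

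Genes absent from the list of any library were dropped, which left 30406. Nuclei with 200 to 5000 genes, at most 2% mitochondrial and at most 1.5% ribosomal protein UMIs were kept, muscle clusters were removed, and 6516 nuclei were integrated and clustered with Seurat 5.3.0 (20 components, resolution 1.3, canonical correlation anchors). Scrublet in scanpy 1.11.5 marked 1 to 19 doublets per library, which were kept and removed in an alternative. Few were marked, so that doublets may remain. A cluster could take a class name only if it held at least 3 detected markers of it. Among such classes the name went to the one with the most markers among the cluster's 10 leading genes. Ties went to the highest mean log2 ratio of the markers. By this rule a cluster of 135 nuclei, 82 of them from day 7, was named as muscle and not counted as stroma. Its mean marker ratio was 1.44 for muscle and 2.05 for IIFCs.

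UMI counts were summed per library over the nuclei of a class and day 3 was compared with uninjured by edgeR 4.0.16 (filterByExpr, TMM, quasi-likelihood test, Benjamini-Hochberg adjustment over all tested genes, threshold 0.05), with DESeq2 1.42.0 as an alternative, and only where each library held at least 20 nuclei of the class. Days 5 and 7 have 1 library each and entered no test. In simulated counts, 200 genes were made to differ between the groups, with the size of the difference set at 3 on the log2 scale. Of those that were tested, the stromal step called 167 of 177, the endothelial step 176 of 182 and the immune step 130 of 169. Smaller differences were not simulated, so these counts do not tell how often a smaller change would be called. Shares of nuclei used a seeded draw of 500 UMIs per nucleus. Correlations used log2(CPM + 10) and genes with at least 50 CPM in some group. Named genes were the 5 members, the 3 called genes of each list with the largest change in each direction or, where fewer were called, members with at least 50 CPM and the largest change, up to 3, and the 10 genes most alike. No protein sequence was used, and no promoter entry was found for *Brinp2*. Alternatives changed the filters, scaling, clustering, doublets and libraries.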

Additional observations from a re-analysis of the deposited data

Results flagged for a closer look

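*Brinp3*, *Brinp1* and *Kif26b* also had UMIs in barcodes that entered no comparison. Among the muscle nuclei removed before clustering, the day 5 library had *Brinp3* at 51.7 CPM and *Brinp1* at 13.9 CPM, above the highest uninjured values of 3.70 and 0.515 CPM. In day 3 library 2, 400 barcodes with over 5000 genes were left out, and they held *Kif26b* at 393 CPM, *Brinp3* at 97.0 CPM and *Brinp1* at 27.1 CPM, where the 7 such barcodes of uninjured library 2 held none of the 3 transcripts. The fit with no upper limit on genes is given among the alternatives.

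*Kif26b* had a log2 fold change of -2.44 at day 3 in endothelial-like nuclei, which did not pass the test, while in stromal nuclei both day 3 libraries lay above both uninjured ones. The difference between the populations was not tested.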

How the results depend on the processing

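With 2 libraries per group each call rests on few residual degrees of freedom, and levels at days 5 and 7 rest on 1 library each. Of 346 comparisons of single named genes with an alternative, 284 kept direction and side of the threshold, 14 passed newly, 37 lost the call and 11 changed sign. Of the values that answer a comparison, 86 stayed, 39 moved, 2 passed newly and 4 lost the call. The causes were not tested. No paired analysis was possible because the labels give the libraries no shared replicate numbers. The pericyte and smooth muscle test was not run, since the day 3 libraries held 4 and 9 such nuclei. The 5% mitochondrial limit in the fold changes, the fit with no upper limit on genes, the *Fgf7*/*Bmper* cluster alone and the endothelium without the *Prox1* cluster were chosen after seeing the data.

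Genes called in the stroma numbered 1392 with no filter on low counts, 280 in the *Fgf7*/*Bmper* cluster alone, and 364 to 1045 with 1 library left out (364 without day 3 library 2), beside 810. In the endothelium 878 were called with no filter and 0 to 406 with 1 library left out (0 without day 3 library 2), beside 248. Among immune-like nuclei DESeq2 called 16 genes, edgeR with no filter 41, and leaving out 1 library gave 0 to 2. The log2 fold change of *Brinp1* was 1.97 over all nuclei and 2.08 with no upper limit on genes, neither of them called, and 2.42 to 3.59 with 1 library left out. Endothelial *Kif26b* was called at -2.50 with no filter, and ranged from -2.99 (called, without uninjured library 2) to -1.66 with 1 library left out, and *Kif26a* from -7.45 (without day 3 library 2) to -0.34.

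The stromal log2 difference of *Brinp3* was 5.12 over all nuclei, 6.15 at resolution 0.8, 5.77 with tendon-like nuclei, 6.31 with the 5% limit, 5.27 with no upper limit on genes, and 5.80 to 6.18 with 1 library left out. That of *Kif26b* was 1.90 over all nuclei, 2.23 with no upper limit on genes, 8.08 in the *Fgf7*/*Bmper* cluster alone, and 5.47 to 6.21 with 1 library left out. Signs changed in the *Fgf7*/*Bmper* cluster alone for *Prickle2* (0.74), *Bmp6* (0.85) and *Rarb* (0.82), with no upper limit on genes for *Myh10* (0.068), *Smad7* (-0.0075) and *Astn2* (-0.97), and over all nuclei for *Smad7* (-0.0090) and *Astn2* (-1.07). With 1 library left out *Myh10* ranged from -0.34 to 0.18 and *Astn2* from -0.51 to 0.61. None of these genes was called.

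In IIFC-like nuclei *Brinp3* was 547 CPM at day 3 and 1577 CPM at day 5 with the 5% limit, and 232 and 1311 CPM without integration. *Kif26b* there was 868 CPM at day 5 with the 5% limit, 648 CPM without integration and 863 CPM at resolution 0.8. In fibroblast-like nuclei *Brinp3* was 217 CPM at day 3 with the 5% limit, and 368 and 509 CPM at days 3 and 5 without integration, where *Kif26b* was 700.0 and 580 CPM, so that without integration *Brinp3* at day 3 was higher in the fibroblast-like class. The share of day 3 stromal nuclei with a UMI was 18.2% for *Brinp3* and 25.5% for *Kif26b* at 1000 UMIs per nucleus, and 23.4% and 38% without thinning. Of the 10 genes most like *Kif26b*, 5 stayed with log2(CPM + 1) and 6 with groups of at least 50 nuclei.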

Other observations

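When the mitochondrial limit was raised to 5% and the ribosomal limit lifted, 3 further clusters led by *Dcc*, by *Lhx2* with ribosomal genes, and by *Ttr* appeared, and 933, 705 and 479 of their 961, 741 and 497 nuclei came from the day 7 library. These nuclei took no class name. The 2096 day 7 barcodes that the limits removed held *Brinp3* at 5.54 CPM, *Brinp1* at 7.20 CPM, *Kif26b* at 27.1 CPM and *Kif26a* at 15.5 CPM. For *Brinp3*, *Brinp1* and *Kif26b* this lay below the day 7 stromal levels. *Brinp2*, the paralogue near 0 in the stroma, had 2 and 6 UMIs in the pericyte and smooth muscle-like nuclei of the uninjured libraries (12.1 and 18.0 CPM).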
